A study of Mus musculus with 10 samples.

Results

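The comparison concerned mESCs without *Dnttip1* against mESCs without *Elmsan1*, the genes of the scaffold subunits of the histone deacetylase complex MiDAC. Its members were the 8 RNA-seq libraries that the labels assign to a knockout, of 10 libraries in all. *Dnttip1* KO1 (clone D2A7) and *Dnttip1* KO2 (clone D1E6) gave 2 libraries each, and *Elmsan1* KO1 (clone E2E8) and *Elmsan1* KO2 (clone E2G7) gave 2 each. The 2 remaining libraries came from WT mESCs. Their values are printed beside some genes and entered no test. All cells derived from the male C57/BL6 line Bruce-4, and each knockout clone grew from a single cell after transfection of Cas9 and 1 guide RNA. KO and WT mESCs alike were kept in the naive medium 2iL, which holds LIF, the GSK3β inhibitor CHIR99021 and the MEK inhibitor PD0325901. A knockout was therefore replicated by 2 clones, and the 2 libraries of a clone are repeats of that clone. Levels are FPKM (fragments per kilobase of exon, scaled to the size of the library) that the authors deposited, divided here by 1 factor per library (0.993 to 1.01 in the KO libraries), and are called normalised FPKM.

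In humans, MiDAC joins the deacetylases HDAC1 and HDAC2 to DNTTIP1 and ELMSAN1 (also called MIDEAS). DNTTIP1 forms dimers and binds chromatin, and the ELM2 and SANT domains of ELMSAN1 bind and activate the deacetylase. In mESCs, the study found HDAC1 but not HDAC2 bound to DNTTIP1 and ELMSAN1. The paper proposes that MiDAC is formed there by DNTTIP1, ELMSAN1 and HDAC1 alone. HDAC1 and HDAC2 also work in the SIN3, NuRD and CoREST complexes. Removal of acetyl groups from histone tails is in general linked to lower transcription nearby. Because both scaffolds belong to a single complex, a direct comparison of the knockouts asks where loss of one is unlike loss of the other.

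The guide RNA targets define the alleles that were compared. They are written below as genomic DNA, 5′ to 3′, with the PAM, the short motif Cas9 needs beside its target, in capitals.
Dnttip1 target: acatcggcaggtgcagcgaaGGG
Elmsan1 target: gctctcttggcggctaaggcAGG
Each has a single match beside a PAM on its chromosome in NCBIM37, at chr2:164572230-164572252 and chr12:85512612-85512634, both on the + strand. In the GENCODE vM1 annotation of that build, the cut in *Dnttip1* falls in the coding part of exon 2 of 13, at codon 49 of 328. The cut in *Elmsan1*, listed there as *C130039O16Rik* and read from the opposite strand, falls at codon 503 of 1089, in exon 3 of 13 of the transcript with the longest coding part. Exon numbers are those of this annotation and differ between annotations and transcripts. The indels of single clones were not analysed here.

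Each targeted RNA was lower in the libraries of its own knockout. *Dnttip1* was at 4.59 and 4.57 in D2A7, 2.59 and 2.61 in D1E6, 6.46 and 6.76 in E2E8 and 7.68 and 7.80 in E2G7, beside 8.50 and 8.38 in WT. The 4 *Dnttip1* KO libraries lay below all others, and D1E6 lay below D2A7. The means were 3.59 ± 1.14 in *Dnttip1* KO and 7.17 ± 0.668 in *Elmsan1* KO mESCs (SD over the libraries, n = 4 each), a log2 difference of -1.03 (SE 0.21, adjusted p = 0.249 from limma). *Elmsan1* was at 7.81 and 8.70 in D2A7, 8.65 and 8.49 in D1E6, 4.91 and 5.15 in E2E8 and 4.65 and 4.77 in E2G7, beside 5.76 and 5.36 in WT. Its *Elmsan1* KO libraries were the lowest of the series, while the *Dnttip1* KO libraries lay above WT, so most of the log2 difference of 0.78 (SE 0.067, adjusted p = 0.0125 from limma) stood between *Dnttip1* KO and WT. An exact two-sided permutation test over the 8 libraries gave p = 0.0286 for each gene, the smallest it can give. That test treats the 2 libraries of a clone as independent, and over 2 clones against 2 such a test cannot go below 0.333. With clones as units, the unadjusted limma p was 0.012 for *Dnttip1* and 0.00283 for *Elmsan1*. FPKM counts transcripts in any reading frame, so these levels do not measure the loss of protein.

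**Figure D1:**
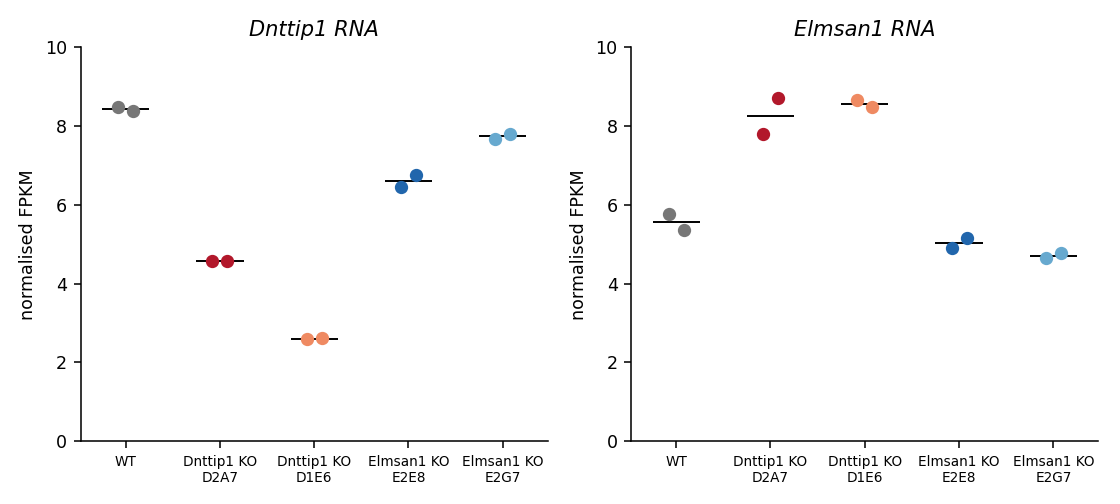
Normalised FPKM of *Dnttip1* and *Elmsan1* in each library of WT, the *Dnttip1* KO clones and the *Elmsan1* KO clones; points are libraries and bars the mean of the 2 libraries. *Dnttip1* is lowest in D1E6 (2.59 and 2.61), and *Elmsan1* is higher in all 4 *Dnttip1* KO libraries than in any other.

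Neither deacetylase gene passed the call rule, and nor did *Trerf1*. *Hdac1* was at 53.04 and 50.8 in D2A7, 50.9 and 51.5 in D1E6, 46.7 and 42.2 in E2E8 and 50.1 and 49.7 in E2G7, so the knockouts did not overlap but differed by only 0.13 on the log2 scale. *Hdac2* was at 55.8 and 55.1 in D2A7, 43.8 and 44.5 in D1E6, 41.8 and 40.6 in E2E8 and 48.8 and 47.2 in E2G7 and the knockouts overlapped. *Trerf1*, a paralogue of *Elmsan1*, was at 0.807 and 0.979 in D2A7, 1.57 and 1.49 in D1E6, 1.42 and 1.37 in E2E8 and 0.988 and 0.956 in E2G7, high in 1 clone of each knockout. *Zfp541*, the other paralogue, stayed under 0.1 FPKM in every library and was not tested.

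Depth moved with the knockout. Every *Elmsan1* KO library (67143700 to 86463800 fragments, recovered from the steps between FPKM values) was deeper than every *Dnttip1* KO library (48262700 to 62336100 fragments), so depth and knockout cannot be told apart. Stem cell markers were present. Of 12 stem cell markers, 11 were at 1 FPKM or more in all 8 libraries, while 9 of 9 primitive endoderm and 13 of 14 fibroblast markers stayed under it in all 8. Of 7 neuron and 7 trophoblast markers measured, 2 of each were at 1 FPKM or more in all 8. The neuron markers summed to 124 to 148 FPKM in *Dnttip1* KO and 96.4 to 148 in *Elmsan1* KO libraries, and the trophoblast markers to 25.5 to 30.3 and 31.6 to 38.1. Of the trophoblast markers, 1 was called higher in *Dnttip1* KO (all genes 1.12%). It was *Gata3*, which stayed far under 1 FPKM in all 8 libraries and is described below.

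Few genes separated the knockouts, and the clones of each knockout also differed. Of 17601 genes tested, 197 (1.12%) were called higher and 73 (0.415%) lower in *Dnttip1* KO than in *Elmsan1* KO mESCs when called at 1.5-fold or more with an unadjusted p below 0.01. Adjusted p-values of the called genes reached 0.296, and 6 genes (0.0341%) had one under 0.05. With each clone as 1 unit, the same rule called 19 genes higher (0.108%) and 9 lower (0.0511%). None of these had an adjusted p under 0.05 in limma. Over clones, 347 genes had an unadjusted limma p under 0.05 and 36 had one under 0.01. Both counts are below the shares of 0.05 and 0.01 of all genes tested that chance alone would give. Without any model, the 4 *Dnttip1* KO libraries lay above all 4 *Elmsan1* KO libraries for 955 genes (5.43%) and below them for 706 (4.01%). Of the called genes, 179 higher and 67 lower ones were among these.

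The absolute log2 difference between the knockout means had a median of 0.15 over all genes tested. Between D2A7 and D1E6 the median was 0.22, and between E2E8 and E2G7 it was 0.24; a mean over 2 clones varies less than a single clone, so the knockout value is lowered by construction. The knockout difference exceeded both clone differences for 2193 genes (12.5%). The called genes leaned on the same pair of clones: 168 of 197 genes called higher were higher in D2A7 than in D1E6, 144 were lower in E2E8 than in E2G7, and for 128 both held. Among the 73 genes called lower, D2A7 was the lower *Dnttip1* KO clone for 59 and E2E8 the higher *Elmsan1* KO clone for 68. The median log2 difference of the genes called higher was 1.36 between D2A7 and E2E8 and 0.50 between D1E6 and E2G7. For the genes called lower these values were -1.22 and -0.41. These pairs of clones were set side by side after their order had been seen.

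**Figure D2:**
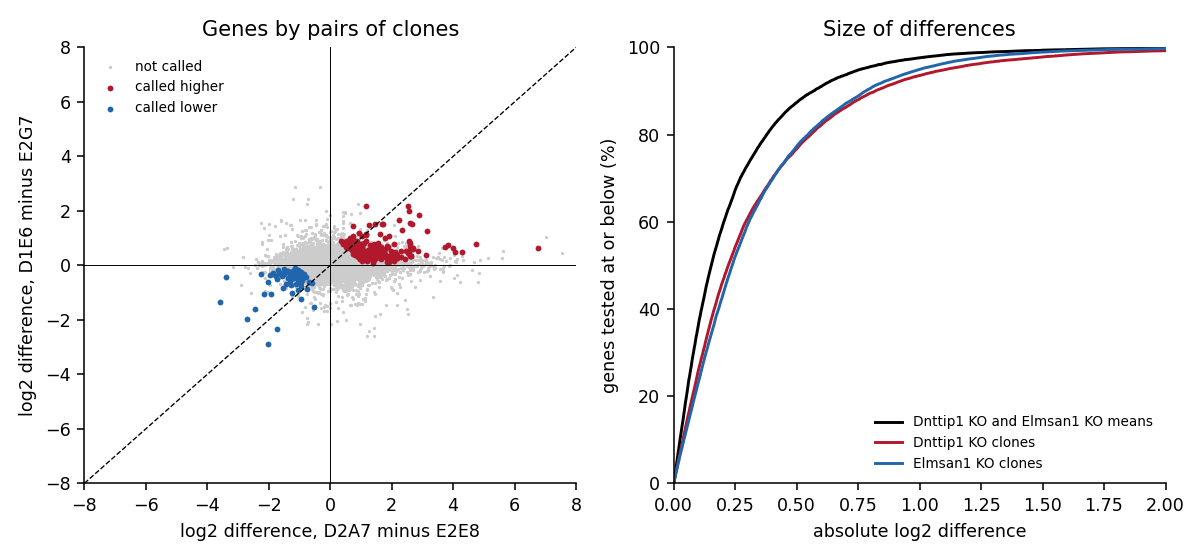
Left, the log2 difference D2A7 minus E2E8 (x axis) and D1E6 minus E2G7 (y axis) of each gene tested, with genes called higher (red) or lower (blue) in *Dnttip1* KO; most called genes lie closer to the x axis than to the dashed line of equal differences. Right, the percentage of genes tested at or below each absolute log2 difference, for the knockout means (median 0.15) and for the clones of each knockout (medians 0.22 and 0.24).

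The 6 genes with an adjusted p under 0.05 in the limma fit over libraries were *Elmsan1* itself, *mt-Nd6*, *Pmel*, *Mir302b*, *Mir138-1* and AC157086.1. No gene had one in limma with clones as units or with libraries of a clone correlated (smallest adjusted p 0.999 in each). These 6 genes were named after their values had been seen. *mt-Nd6*, a subunit of respiratory complex I encoded in mitochondrial DNA, was at 47.3 and 49.6 in D2A7, 47.9 and 46.5 in D1E6, 33.2 and 32.7 in E2E8 and 35.1 and 31.5 in E2G7 (log2 difference 0.53 (SE 0.049), adjusted p = 0.0141 from limma). *Pmel*, which forms the fibrils of melanosomes, was at 47.1 and 48.0 in D2A7, 43.9 and 42.2 in D1E6, 31.2 and 32.1 in E2E8 and 30.3 and 30.6 in E2G7 (log2 difference 0.54 (SE 0.054), adjusted p = 0.0171 from limma). In both, the clones of a knockout lay close together and the knockouts far apart, although neither reached the 1.5-fold limit of a call. Of the other 3, the miRNA genes rested on almost no reads. *Mir302b* had 2 in each library in D2A7, 1 and 2 in D1E6, 0 in each library in E2E8 and 0 in each library in E2G7 as whole fragments, and *Mir138-1* had 1 in each library in D2A7, 1 in each library in D1E6, 0 in each library in E2E8 and 0 in each library in E2G7. All of these counts are at or under 3 fragments, the most that a count of 0 allows, so no fold change is given. AC157086.1, a gene with no entry in GENCODE vM1, was listed at 0 in all *Dnttip1* KO and WT libraries and at 0.220 and 0.247 normalised FPKM in E2E8 and 0.417 and 0.387 in E2G7.

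The mature miRNAs of the miRNA genes that appear by name in these results are shown with the seed, bases 2 to 8, in capitals, as RefSeq gives them with GRCm38.p6. The 3 seeds differ.
miR-302b-3p: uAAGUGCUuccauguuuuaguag
miR-138-5p: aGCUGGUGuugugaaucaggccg
miR-196a-5p: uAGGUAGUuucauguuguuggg
Total-RNA libraries of this kind cover the gene interval, including primary transcripts and overlapping host RNA, and not the mature miRNA. *Mir196a-1*, between *Hoxb9* and *Hoxb13*, had 98 and 85 in D2A7, 25 and 34 in D1E6, 22 and 15 in E2E8 and 28 and 24 in E2G7 fragments and was called higher in *Dnttip1* KO mESCs.

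The genes described next have the 12 largest differences in each direction among those called, averaging 1 FPKM or more and without overlap. Larger differences without a call are among the Y-linked genes below. The genes higher in *Dnttip1* KO mESCs were of mixed roles. *Cd3g*, a chain of the T-cell receptor complex, was at 7.98 and 6.68 in D2A7, 0.717 and 0.938 in D1E6, 0.172 and 0.180 in E2E8 and 0.456 and 0.413 in E2G7 (log2 difference 2.77 (SE 0.77)). *H2-Eb1*, a chain of MHC class II, was at 8.09 and 7.39 in D2A7, 1.66 and 1.62 in D1E6, 0.487 and 0.486 in E2E8 and 0.852 and 1.12 in E2G7 (log2 difference 2.21 (SE 0.57)), and *Lst1*, a leukocyte gene of the MHC region, at 5.49 and 4.04 in D2A7, 1.10 and 0.959 in D1E6, 0.222 and 0.178 in E2E8 and 0.753 and 0.532 in E2G7 (log2 difference 2.31 (SE 0.61)). In all of them D2A7 stood far above the other clones, and D1E6 was above E2G7 by less than its distance from D2A7. *Pramel7*, of the PRAME family and typical of naive pluripotent cells, was at 5.49 and 5.05 in D2A7, 0.835 and 0.896 in D1E6, 0.154 and 0.194 in E2E8 and 0.638 and 0.539 in E2G7 (log2 difference 2.39 (SE 0.68)). *Hmga2*, an architectural chromatin protein, was at 4.63 and 4.59 in D2A7, 1.42 and 1.52 in D1E6, 0.589 and 0.735 in E2E8 and 1.19 and 1.09 in E2G7 (log2 difference 1.48 (SE 0.43)). *Msln* (mesothelin, a surface glycoprotein) was at 3.94 and 4.47 in D2A7, 1.36 and 1.30 in D1E6, 0.592 and 0.673 in E2E8 and 0.828 and 0.555 in E2G7, and *Birc7*, an inhibitor of apoptosis, at 7.47 and 8.04 in D2A7, 2.76 and 2.52 in D1E6, 1.83 and 1.68 in E2E8 and 1.52 and 1.48 in E2G7. D1E6 again lay nearer to the *Elmsan1* KO clones than to D2A7.

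The remaining genes of this group were the pseudogenes *Gm12617* and *2210409E12Rik* (log2 difference 2.28 (SE 0.59)), *Mir196a-1* (log2 difference 1.67 (SE 0.40)), *Gm17497* (log2 difference 1.62 (SE 0.34)) and the lincRNA *Gm17525* (log2 difference 1.496 (SE 0.45)). *Gm12617* was at 13.1 and 12.5 in D2A7, 1.90 and 2.42 in D1E6, 0 and 0.0389 in E2E8 and 1.35 and 1.37 in E2G7, beside 2.37 and 1.93 in WT, with 0 and 1 fragments in E2E8. Its log2 difference of 3.70 therefore depends on the pseudocount, and ran from 1.89 to 5.51 over the alternatives. *2210409E12Rik* was at 36.6 and 36.5 in D2A7, 7.67 and 6.72 in D1E6, 2.74 and 2.27 in E2E8 and 4.41 and 4.13 in E2G7, and its WT level of 20.1 and 19.9 fell between D2A7 and D1E6. *Gm17497* had only 19 and 12 in D2A7, 5 and 19 in D1E6, 5 and 6 in E2E8 and 6 and 4 in E2G7 fragments. The adjusted p-values of these 12 genes lay between 0.249 and 0.296 in limma. For all but *Gm17497* the unadjusted p over clones was above 0.01.

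Lower in *Dnttip1* KO mESCs were 2 Tudor domain genes of the piRNA pathway, which silences transposons in germ cells. *Tdrd12* was at 14.2 and 14.3 in D2A7, 17.1 and 17.2 in D1E6, 34.4 and 33.8 in E2E8 and 23.9 and 23.1 in E2G7 (log2 difference -0.85 (SE 0.15)), beside 21.6 and 21.0 in WT. *Rnf17* was at 10.6 and 10.7 in D2A7, 17.0 in each library in D1E6, 35.8 and 34.4 in E2E8 and 19.8 and 18.4 in E2G7 (log2 difference -0.94 (SE 0.27)), beside 24.4 and 24.6 in WT. Both had their lowest level in D2A7 and their highest in E2E8, with D1E6 and E2G7 between them. *Zfp69*, a KRAB zinc finger protein, was at 1.12 and 0.942 in D2A7, 1.39 and 1.40 in D1E6, 2.55 and 2.63 in E2E8 and 3.02 and 2.89 in E2G7 (log2 difference -1.14 (SE 0.14), adjusted p = 0.0604 from limma), beside 1.45 and 1.4996 in WT. Here each *Elmsan1* KO clone stood above WT and the *Dnttip1* KO clones did not, and the clones of each knockout lay close together. *Mest*, an imprinted gene of the hydrolase fold family, was at 8.21 and 8.17 in D2A7, 18.0 and 18.8 in D1E6, 26.4 and 25.9 in E2E8 and 22.1 and 22.6 in E2G7 (log2 difference -0.97 (SE 0.29)), lowest in D2A7. *Mid1ip1*, which promotes fatty acid synthesis, was at 1.92 and 2.29 in D2A7, 2.56 and 2.60 in D1E6, 6.85 and 6.68 in E2E8 and 3.13 and 3.19 in E2G7 (log2 difference -0.96 (SE 0.28)), beside 7.53 and 6.50 in WT. *Zfp750*, known from epidermal differentiation, was at 0.644 and 0.816 in D2A7, 1.21 and 1.41 in D1E6, 2.25 and 2.20 in E2E8 and 1.64 and 1.69 in E2G7 (log2 difference -0.91 (SE 0.24)).

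*Tex13*, a testis-expressed X-linked gene, was at 0.363 and 0.498 in D2A7, 0.674 and 0.779 in D1E6, 2.08 and 1.99 in E2E8 and 1.23 and 1.10 in E2G7 (log2 difference -1.32 (SE 0.27)), below its WT level of 4.56 and 3.75 in every KO library. *Xk*, a membrane protein of the Kell blood group complex, was at 0.455 and 0.501 in D2A7, 1.21 and 1.23 in D1E6, 2.74 and 2.54 in E2E8 and 1.59 and 1.501 in E2G7 (log2 difference -1.28 (SE 0.35)). *Ccdc136* was at 2.60 and 2.55 in D2A7, 2.63 and 2.62 in D1E6, 6.55 and 6.64 in E2E8 and 3.93 and 4.17 in E2G7 (log2 difference -0.96 (SE 0.18)), equal in both *Dnttip1* KO clones within 0.1 FPKM. *BC055111* was at 0.347 and 0.563 in D2A7, 1.02 and 1.12 in D1E6, 5.68 and 5.55 in E2E8 and 1.502 and 1.47 in E2G7 (log2 difference -1.92 (SE 0.53)), high in E2E8 alone. SCARNA20, a small Cajal body RNA, ranged from 0.813 to 1.49 in *Dnttip1* KO and from 1.84 to 3.20 in *Elmsan1* KO libraries. Of these genes, the unadjusted p over clones was under 0.01 for *Zfp69*, *Tdrd12* and SCARNA20.

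**Figure D3:**
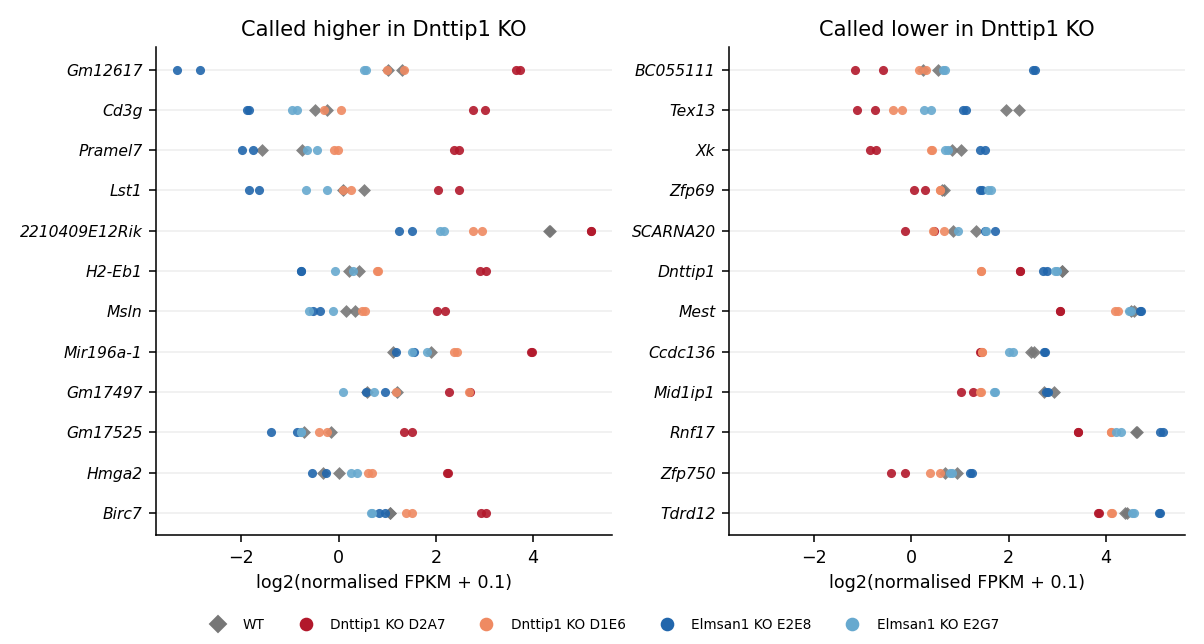
Level of the 12 called genes with the largest difference in each direction, as log2(normalised FPKM + 0.1), in every library; circles are KO libraries coloured by clone and diamonds are WT. For most genes D2A7 (dark red) and E2E8 (dark blue) lie at the ends, and D1E6, E2G7 and WT between them.

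Genes in which every clone took part were fewer. Each *Dnttip1* KO clone was at least 1.5-fold above each *Elmsan1* KO clone for 91 genes and as far below for 35. Only 16 and 4 of them had a mean of at least 50 fragments. Beside *Elmsan1*, *Msln*, *H2-Eb1* and others named above, they included *Fam189a2* and *Icosl*, named after their values had been seen. *Fam189a2* was at 5.69 and 6.13 in D2A7, 3.12 and 3.41 in D1E6, 2.00 and 2.13 in E2E8 and 1.75 and 2.23 in E2G7 (log2 difference 1.08 (SE 0.22)). *Icosl*, a ligand that stimulates T cells, was at 1.51 and 1.49 in D2A7, 1.55 and 1.84 in D1E6, 0.704 and 0.594 in E2E8 and 0.998 and 0.826 in E2G7 (log2 difference 0.96 (SE 0.16)), and WT lay below all KO clones at 0.436 and 0.591. Of the genes called over clones, 8 higher and 3 lower ones had a mean of at least 1 FPKM. The higher ones were *Elmsan1*, *mt-Nd2*, *mt-Tq*, *Gm17497*, *Gm10337*, *Mir5099*, U8 and snoR38, and the lower ones *Zfp69*, *Tdrd12* and SCARNA20.

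Y-linked genes differed most as a group, and the difference lay between clones. All 7 tested members of 9 were higher in the 4 *Dnttip1* KO libraries than in the 4 *Elmsan1* KO libraries (all genes 5.43%). Of these, 3 were called higher (all genes 1.12%), and the median log2 difference was 2.54 (all genes tested 0.010). *Ddx3y*, an RNA helicase, was at 18.95 and 18.4 in D2A7, 11.5 and 11.6 in D1E6, 0.00284 and 0 in E2E8 and 8.50 and 8.35 in E2G7, beside 17.2 and 18.1 in WT. *Eif2s3y*, a translation initiation factor subunit, was at 13.2 and 13.1 in D2A7, 6.34 and 7.08 in D1E6, 0.00316 and 0 in E2E8 and 3.24 and 3.26 in E2G7, beside 6.69 and 5.79 in WT. *Uty*, a histone demethylase homologue, was at 4.83 and 4.80 in D2A7, 3.92 and 4.12 in D1E6, 0 in each library in E2E8 and 2.74 and 2.77 in E2G7. In E2E8 the RNA of the Y chromosome was absent or nearly so, whereas E2G7 kept it below the level of both *Dnttip1* KO clones. Fold changes against E2E8 depend on the pseudocount and are no measure of size. Without E2E8, the median log2 difference of these genes was 0.80. *Eif2s3y* and *Uty* were named after their values had been seen, and so were the called members *Kdm5d* (1.65), *Zfy1* (2.28) and *Zfy2* (1.20), each with a mean under 1 FPKM. *Sry*, the testis-determining gene, was at 0 in all 8 libraries.

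Genes encoded in mitochondrial DNA had a positive median difference. Of 37 such genes, 25 were tested. Of these, 13 did not overlap between the knockouts, all of them higher, and 3 were called higher (all genes 5.43% and 1.12%). None was lower by either rule. Their median log2 difference was 0.47, 24 differences were positive and 1 was negative (-0.31), and 12 genes overlapped between the knockouts. *mt-Nd1*, of complex I, was at 1325 and 1478 in D2A7, 1249 and 1299.6 in D1E6, 711 and 804 in E2E8 and 1021 and 973 in E2G7 (log2 difference 0.62 (SE 0.12), adjusted p = 0.249 from limma). *mt-Nd2*, of the same complex, was at 182 and 207 in D2A7, 168 and 170.2 in D1E6, 110.2 and 112 in E2E8 and 132 and 125 in E2G7 (log2 difference 0.60 (SE 0.087), adjusted p = 0.13 from limma). The tRNA gene *mt-Tq* was at 13.6 and 15.9 in D2A7, 13.1 and 11.2 in D1E6, 9.46 and 5.63 in E2E8 and 7.75 and 10.5 in E2G7 (log2 difference 0.71 (SE 0.19)). WT lay below all *Dnttip1* KO libraries for *mt-Nd1* (999.8 and 1056) and *mt-Nd2* (132 and 139). For *mt-Tq* it lay within the *Dnttip1* KO range (13.7 and 11.5). Among members named after their values had been seen, *mt-Atp6* of ATP synthase differed by 0.30 and *mt-Co3* of complex IV by 0.28, and neither was called. The kit removes cytoplasmic and mitochondrial rRNA, so what is left of *mt-Rnr1* (0.34) and *mt-Rnr2* (0.34) does not give their level in cells. Of 81 nuclear genes of the respiratory chain, none was called, and the median was -0.019. Of them, 1 did not overlap upward and 6 downward (all genes 5.43% and 4.01%). Their most abundant member *Cox4i1* was at 661 and 650.2 in D2A7, 587 and 553 in D1E6, 504 and 489 in E2E8 and 593 and 588 in E2G7.

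**Figure D4:**
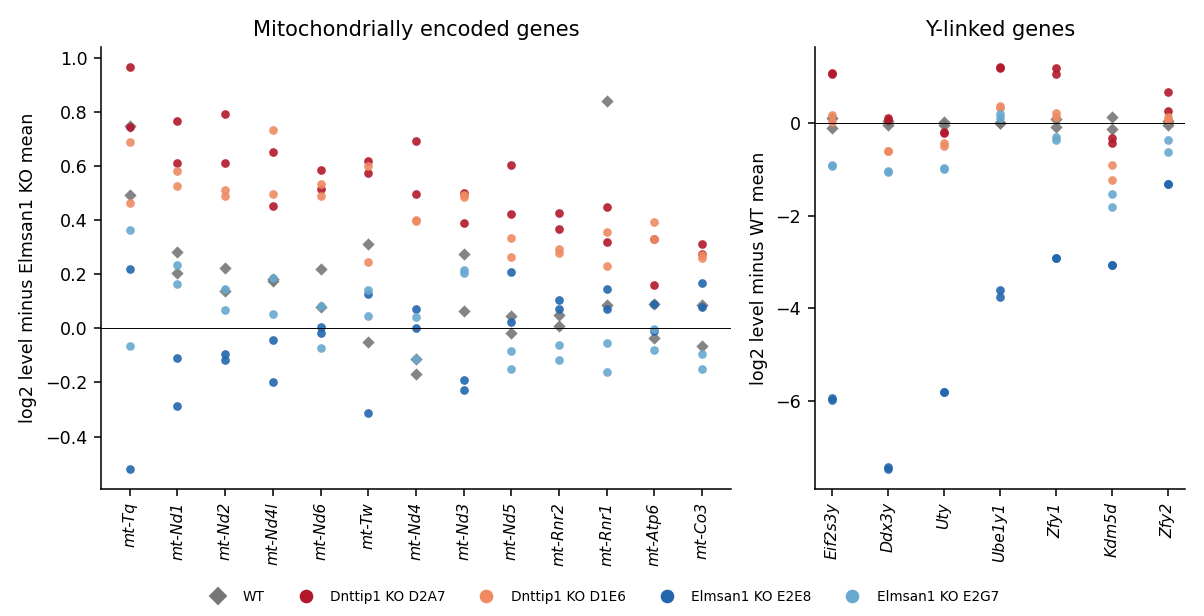
Left, the 13 mitochondrially encoded genes of 25 tested whose libraries did not overlap, as log2(normalised FPKM + 0.1) minus the *Elmsan1* KO mean. That *Dnttip1* KO clones lie above *Elmsan1* KO clones is fixed by this choice of genes, and the tested genes that overlapped are not shown. Right, the 7 Y-linked genes tested, relative to the WT mean; E2E8 is lowest for each of them, down to its floor, and E2G7 lies below the *Dnttip1* KO clones.

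Whole chromosomes were compared because clonal lines can differ in chromosome number. Over genes that averaged 1 FPKM or more, the median log2 difference between the knockouts lay within ±0.04 on chromosomes 1 to 5, 7 to 19 and X. On chromosome 6 (547 genes) it was -0.17. The clones were at -0.34 (D2A7), 0.15 (D1E6), 0.13 (E2E8) and 0.030 (E2G7) from their common mean. Relative to WT, D2A7 was at -0.080 and D1E6, E2E8 and E2G7 were at 0.43, 0.39 and 0.29. The chromosome thus set D2A7 apart from the other clones and not one knockout from the other; without D2A7 its median was 0.064. Chromosome 8 was raised over WT by 0.35 to 0.37 in all 4 clones and did not differ between the knockouts (0.0080). Of the 803 genes tested on chromosome 6, 10 were called higher and 6 lower (all genes 1.12% and 0.415%). *Mest* and *Ccdc136* were among the lower ones. Setting the chromosome medians equal left 187 called higher and 75 lower. DNA copy number was not measured.

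**Figure D5:**
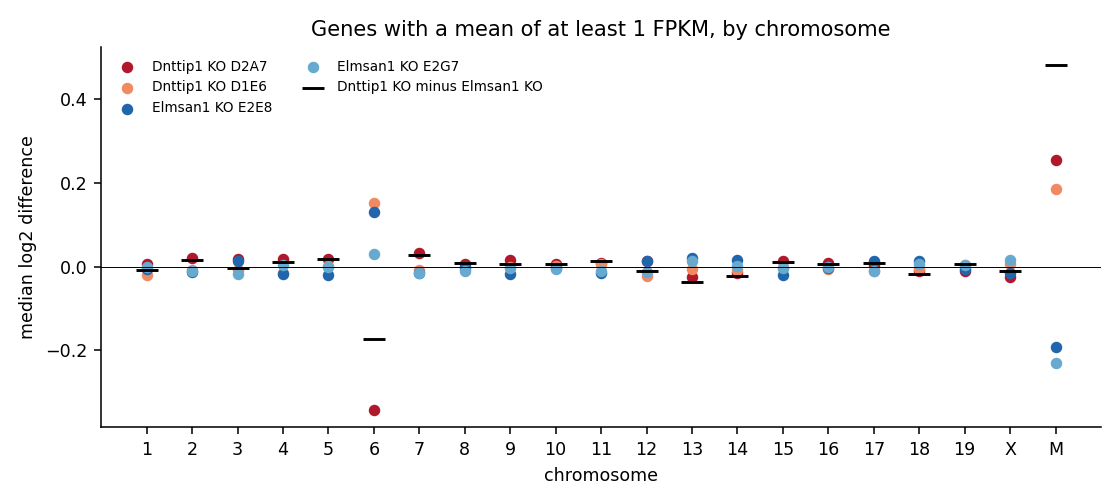
Median log2 difference of the genes of each chromosome that averaged 1 FPKM or more, for each clone from the mean of the KO libraries (circles) and between the knockouts (black dashes); the Y chromosome is left out. Chromosome 6 sets D2A7 (-0.34) apart, and on M, the mitochondrial DNA, both *Dnttip1* KO clones lie above both *Elmsan1* KO clones.

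Small nucleolar RNA genes leaned towards *Dnttip1* KO mESCs. Small nucleolar and Cajal body RNAs guide the chemical modification of rRNA and of spliceosomal RNA. Of the 85 tested among 122 with a gene symbol of that kind, 18 did not overlap and were higher, 0 were lower (all genes 5.43% and 4.01%), and the median log2 difference was 0.19. Only *Snord61* was called (1.59), a gene named after its value had been seen. The most abundant member, *Scarna10*, went the other way at 619 and 532 in D2A7, 1035 and 745 in D1E6, 1596 and 1392 in E2E8 and 879 and 759 in E2G7, without a call. By annotated type, 24 of 149 snoRNA genes did not overlap upward (16.1%) and 0 downward. With a mean of at least 50 fragments these were 19 of 85. Among 521 miRNA genes, 18 were called higher and 5 lower (3.45% and 0.960%, against 1.12% and 0.415% of all genes). Of these genes, 22 (4.22%) did not overlap upward and 4 downward, their median was 0.039, and 493 of the 521 had a mean under 50 fragments. Of the 270 called genes of all types, 107 had a mean under 50 fragments and 39 had fewer than 10 in every library. The part of depth, which moved with the knockout, was not tested.

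Other chromatin genes gave few calls (all genes 1.12% called higher and 0.415% lower). None of 30 subunits of the SIN3, NuRD and CoREST complexes was called, and their median was 0.027. The histone chaperone *Rbbp7*, the most abundant of them, was at 101 and 98.1 in D2A7, 112 and 111 in D1E6, 103 and 99.0 in E2E8 and 115 and 113 in E2G7. Among 12 genes of DNA methylation and its removal, *Tet2*, which oxidises 5-methylcytosine, was called higher. Differences in that list ran from -0.38 to 1.60, and the largest had no call. *Tet2* was at 20.9 and 21.6 in D2A7, 12.7 and 13.1 in D1E6, 5.59 and 5.58 in E2E8 and 11.2 in each library in E2G7 (log2 difference 1.05 (SE 0.30)), beside 17.4 and 17.7 in WT, so that E2E8 was low, D2A7 high and the other clones close together. Of 69 replication-dependent histone genes, none was called, 3 did not overlap downward (all genes 4.01%) and all had a negative difference (median -0.27). By clone, the histone median was -0.30 in D2A7 and 0.038 to 0.14 in the other clones. The most abundant histone gene, *Hist1h4d*, was at 1024 and 1157 in D2A7, 1369.9 and 1346 in D1E6, 1389 and 1496 in E2E8 and 1278 and 1511 in E2G7. Histone genes have near-identical copies, among which the counting could split reads. Of 344 *Zfp* genes, *Zfp69* and *Zfp750* were called lower, none was called higher and the median was 0.020.

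No member of the pluripotency lists was called; *Pramel7*, above, is in none of them. *Pou5f1* (OCT4) was at 319 and 311 in D2A7, 287 and 269 in D1E6, 243 and 239 in E2E8 and 292 and 289.9 in E2G7, *Sox2* at 146 and 148 in D2A7, 139 and 142 in D1E6, 132 and 137 in E2E8 and 139 and 138 in E2G7 and *Nanog* at 280.1 and 276 in D2A7, 285 and 293 in D1E6, 245 and 242 in E2E8 and 272 and 264 in E2G7. Only *Nanog* did not overlap, with a log2 difference of 0.15. None of 11 stem cell markers, 20 naive genes and 15 primed or formative genes was called (medians 0.16, 0.12 and -0.029). Single differences ran from -0.0091 to 1.60, from -0.45 to 0.55 and from -0.46 to 1.83, so the lists held large differences without a call. *Dppa5a*, the most abundant stem cell marker, was at 2303 and 2056 in D2A7, 1881 and 1753 in D1E6, 1927 and 1718 in E2E8 and 1925 and 1919 in E2G7. *Lefty2*, a Nodal antagonist, was at 247 and 255 in D2A7, 361 and 352 in D1E6, 339 and 336 in E2E8 and 347 and 349 in E2G7, lower in D2A7 than in all other clones.

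Signalling genes gave 1 call (all genes 1.12% called higher and 0.415% lower). The medium 2iL blocks the ERK pathway and activates the WNT pathway. None of 18 ERK response, 17 WNT response and 12 BMP response genes was called. *Etv5*, an ETS factor downstream of FGF signalling, was at 62.7 and 65.0 in D2A7, 76.9 and 77.0 in D1E6, 79.9 and 78.8 in E2E8 and 87.0 and 83.4 in E2G7 and did not overlap (-0.23). *Notum*, a secreted WNT inhibitor, was at 32.6 and 34.2 in D2A7, 29.1 and 29.5 in D1E6, 35.8 and 37.1 in E2E8 and 37.0 and 38.5 in E2G7 (-0.24), all KO libraries far below WT at 94.1 and 88.2. *Id1*, a BMP target, was at 1.32 and 1.33 in D2A7, 1.52 and 1.47 in D1E6, 0.375 and 0.421 in E2E8 and 1.37 and 1.76 in E2G7, low in E2E8 alone. The BMP response median of 0.33 came with a D2A7 median of 0.29 and of -0.11 to -0.10 in the other clones. Of 16 FGF ligands and receptors, *Fgf3* was called higher (0.88), named after its value had been seen, and *Fgf4*, the main FGF of mESCs, was at 132 and 129.97 in D2A7, 93.7 and 92.7 in D1E6, 75.1 and 76.3 in E2E8 and 92.0 and 93.3 in E2G7 (0.40, no call). Hedgehog and Notch genes gave no call among 14 and 17, with *Ptch1* differing by -0.10 and *Rbpj* by 0.15.

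Lineage genes gave calls in some lists. Over all genes tested, 1.12% were called higher and 0.415% lower. Of 12 primitive endoderm genes, *Col4a1* and *Col4a2*, the chains of basement membrane collagen, were called higher (median 0.30). *Col4a1* was at 2.46 and 2.74 in D2A7, 2.18 and 1.97 in D1E6, 0.761 and 0.769 in E2E8 and 1.63 and 1.65 in E2G7 (log2 difference 0.98 (SE 0.27)). *Col4a2* stayed near or under 1 FPKM (0.79). Of 10 trophoblast genes, *Krt18*, a keratin of simple epithelia, was called higher at 11.3 and 11.6 in D2A7, 5.43 and 5.06 in D1E6, 3.12 and 3.51 in E2E8 and 3.33 and 3.86 in E2G7 (log2 difference 1.15 (SE 0.28)). *Gata3* was called too (0.70) but never exceeded 0.128 FPKM, while *Tfap2c*, the most abundant member, was lower by 0.33 without a call. None of 5 fibroblast and 8 mesendoderm genes was called, with *Fbln2* at 3.30 and 3.43 in D2A7, 1.51 and 1.54 in D1E6, 1.62 and 1.68 in E2E8 and 1.78 in each library in E2G7 and *Eomes* at 1.98 and 2.26 in D2A7, 3.24 and 3.23 in D1E6, 3.24 and 3.04 in E2E8 and 2.99 and 3.11 in E2G7. D2A7 had the highest median of the 4 clones in the primitive endoderm (0.52), trophoblast (0.54) and fibroblast (0.68) lists. E2E8 had the lowest in each (-0.24, -0.30 and -0.27). Of 14 Hox genes tested, *Hoxb9* was called higher (0.98), and *Hoxc12*, the most abundant, was at 9.07 and 11.7 in D2A7, 7.24 and 6.92 in D1E6, 6.18 and 7.73 in E2E8 and 6.16 and 6.22 in E2G7. *Gata3*, *Col4a2*, *Tfap2c* and *Hoxb9* were named after their values had been seen.

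Axon guidance and neural adhesion genes, which the study examined, gave 1 call in all. Of 70 axon guidance ligands and receptors, 48 were tested, and the median was -0.024. Of these, 4 did not overlap upward and 1 downward (all genes 5.43% and 4.01%). *Slit3*, a repellent ligand, was under 0.1 FPKM in all 8 KO libraries, beside 0.646 and 0.493 in WT, and could not be tested. *Ntn1*, an attractant, was at 15.6 and 16.3 in D2A7, 12.3 in each library in D1E6, 12.2 and 12.6 in E2E8 and 12.9 and 13.5 in E2G7 (log2 difference 0.13 (SE 0.10)), beside 25.7 and 25.3 in WT. Its receptor *Unc5b* was at 14.1 and 14.3 in D2A7, 14.3 and 14.1 in D1E6, 8.86 and 9.75 in E2E8 and 14.9 and 14.4 in E2G7, lower in E2E8 alone. *Robo3* stayed under 0.01 FPKM in every library. *Epha4*, the most abundant member, was at 39.1 and 39.8 in D2A7, 32.0 and 31.5 in D1E6, 24.1 and 24.6 in E2E8 and 33.8 and 33.4 in E2G7. *Ncam1*, a neural cell adhesion molecule, was at 2.30 and 2.34 in D2A7, 2.25 and 2.40 in D1E6, 1.53 and 1.48 in E2E8 and 1.64 and 1.67 in E2G7 (log2 difference 0.53 (SE 0.091), adjusted p = 0.199 from limma), so the clones of each knockout lay together and the knockouts apart, under the 1.5-fold limit. Both knockouts were below WT at 5.90 and 6.10. Of 13 neural immunoglobulin adhesion genes, 1 was called lower and none higher (all genes 0.415% and 1.12%). It was *Nrcam* (-1.08), a gene under 1 FPKM named after its value had been seen. *Cadm4* was at 18.7 and 18.5 in D2A7, 11.3 and 10.4 in D1E6, 18.9 in each library in E2E8 and 12.1 and 12.9 in E2G7.

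Neural markers gave no call among 13 tested. *Nes* (nestin) was at 12.5 and 12.99 in D2A7, 8.62 and 8.603 in D1E6, 5.99 and 5.97 in E2E8 and 8.80 and 9.27 in E2G7, *Tubb3* at 70.8 and 72.9 in D2A7, 86.1 and 85.7 in D1E6, 46.3 and 44.1 in E2E8 and 87.8 and 87.4 in E2G7 and *Pacsin1*, an endocytic adaptor of neurons, at 0.400 and 0.278 in D2A7, 0.335 and 0.300 in D1E6, 0.563 and 0.494 in E2E8 and 0.240 and 0.235 in E2G7. For *Nes* and *Tubb3* the lowest clone was E2E8, and the other *Elmsan1* KO clone lay within or above the *Dnttip1* KO range. *Pax6* was under 0.1 FPKM in every library.

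Imprinted genes, read from a single parental copy, varied by clone. Of 30 at loci other than *Dlk1*-*Dio3* and *Peg10*-*Sgce*, *Mest* and *Nnat* were called lower and *Igf2* higher (all genes 0.415% and 1.12%). *Nnat* (neuronatin) was at 0.0265 and 0.0824 in D2A7, 0.249 and 0.122 in D1E6, 0.576 and 0.478 in E2E8 and 1.83 and 2.05 in E2G7 (log2 difference -2.46 (SE 0.50), p over clones 0.00755), beside 1.58 and 1.62 in WT, so only E2G7 kept the WT level. *Igf2*, a fetal growth factor, was at 0.441 and 0.432 in D2A7, 0.170 and 0.249 in D1E6, 0.0743 and 0.0917 in E2E8 and 0.0819 and 0.0656 in E2G7 (log2 difference 1.19 (SE 0.25)). *Nnat* and *Igf2*, both under 1 FPKM on average, were named after their values had been seen. *Dio3* was the only tested gene of its locus at 6.35 and 7.19 in D2A7, 1.57 and 1.95 in D1E6, 0.117 and 0.270 in E2E8 and 1.93 and 2.01 in E2G7, from near 0 in E2E8 to its highest in D2A7, without a call. The 6 tested genes around *Peg10*, on chromosome 6, were all lower (median -0.42), none with a call. By clone their median was -0.37 in D2A7, 0.39 in E2E8, 0.0058 in D1E6 and -0.0045 in E2G7. *Ppp1r9a* was at 1.08 and 1.13 in D2A7, 1.46 and 1.56 in D1E6, 1.89 and 2.04 in E2E8 and 1.43 and 1.42 in E2G7. Of 20 germline and meiosis genes, none was called and the median was -0.20; the list did not hold *Tdrd12* or *Rnf17*. *Rhox6*, an X-linked homeobox gene, was at 10.9 and 11.6 in D2A7, 24.7 and 23.6 in D1E6, 18.5 in each library in E2E8 and 26.5 and 24.2 in E2G7. In the X inactivation centre, none of 5 genes was called, and the ubiquitin ligase *Rlim* was at 29.6 and 28.7 in D2A7, 32.1 and 33.0 in D1E6, 35.0 and 34.6 in E2E8 and 35.8 and 35.4 in E2G7.

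Matrix and cytoskeletal genes held several calls. Of 28 cytoskeletal genes and their actin-responsive targets, 3 were called higher and 0 lower, against 1.12% and 0.415% of all genes. They were *Krt18* and the matricellular genes *Cyr61* and *Ctgf*, targets of the YAP and SRF pathways. *Cyr61* was at 5.58 and 5.52 in D2A7, 3.35 and 2.99 in D1E6, 2.18 and 2.17 in E2E8 and 2.47 and 2.27 in E2G7 (log2 difference 0.86 (SE 0.21)), and *Ctgf* at 20.9 and 20.1 in D2A7, 11.05 and 11.4 in D1E6, 7.002 and 8.19 in E2E8 and 9.52 and 9.87 in E2G7 (log2 difference 0.82 (SE 0.23)). Both were high in D2A7 and lower in each of the other clones. Of 26 collagens and laminins, 2 were called higher, the *Col4a* genes above, with a median of 0.21. None of 29 integrins and cadherins was called, and *Cdh1* (E-cadherin) was at 154 and 162 in D2A7, 156 and 154 in D1E6, 153 and 152 in E2E8 and 159 and 156 in E2G7. Heparan sulfate genes gave no call among 25, with *Sdc4* at 151 and 147 in D2A7, 114 and 111 in D1E6, 138 and 139 in E2E8 and 123 in each library in E2G7.

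Targets of p53, the factor that answers DNA damage, had a negative median difference. Of 22, 1 was called lower, 6 did not overlap downward and 1 upward (all genes 0.415% called lower, 4.01% and 5.43% without overlap), and the median was -0.23. *Eda2r*, a TNF receptor family member, was at 9.69 and 9.26 in D2A7, 14.4 and 14.3 in D1E6, 21.4 and 20.6 in E2E8 and 15.7 and 15.2 in E2G7 (log2 difference -0.62 (SE 0.18)). *Cdkn1a* (p21) was at 35.6 and 34.5 in D2A7, 31.7 and 32.4 in D1E6, 47.9 and 46.9 in E2E8 and 36.5 and 36.9 in E2G7 (log2 difference -0.32 (SE 0.10)), beside 32.7 and 34.1 in WT. The list stood at 0.30 in E2E8 and at -0.13 to -0.0066 in the other clones, so E2E8 was the clone apart, and without it the median difference was -0.11. Of 31 cell cycle genes, *Cdkn2a*, the INK4A and ARF locus, was called lower at 10.9 and 10.5 in D2A7, 14.0 and 13.6 in D1E6, 22.3 and 21.9 in E2E8 and 15.5 and 15.8 in E2G7 (log2 difference -0.61 (SE 0.15)). *Ccna2* was at 67.3 and 68.1 in D2A7, 82.4 and 87.1 in D1E6, 76.4 in each library in E2E8 and 84.8 and 82.8 in E2G7 and *Cdkn1b* (p27) at 21.5 and 21.1 in D2A7, 28.8 in each library in D1E6, 31.9 and 30.9 in E2E8 and 27.4 and 27.2 in E2G7, and neither was called.

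The integrated stress response, which raises amino acid supply through ATF4, also had a negative median. Of 25 genes, 1 was called lower, 6 did not overlap downward and none upward (all genes 0.415% called lower, 4.01% without overlap downward), and the median was -0.30. It stood at 0.36 in E2E8 and at -0.16 to -0.085 in the other clones, and without E2E8 the median difference was -0.090. *Asns* (asparagine synthetase) was at 452 and 438 in D2A7, 531 and 533 in D1E6, 601 and 582 in E2E8 and 533 and 515 in E2G7. The called gene, the cystine transporter *Slc7a11*, was under 1 FPKM (-0.80) and was named after its value had been seen. Cholesterol and fatty acid genes gave no call among 27 (median -0.11), glycolysis and hypoxia genes none among 30 (-0.13), chaperones none among 17 (0.12) and interferon response genes none among 18 (-0.024). Their most abundant members *Scd2*, *Pkm2*, *Hsp90aa1* and *Ifitm2* differed by -0.094, -0.066, 0.16 and -0.16 on the log2 scale. Of 85 genes of cytosolic ribosomal proteins, 1 was called higher (all genes 1.12%). It was *Rpl3l*, a muscle form (0.69, named after its value had been seen). *Rpl32* was at 2172 and 2174 in D2A7, 2971 and 2907 in D1E6, 2976 and 2807 in E2E8 and 2738 and 2818 in E2G7. The long non-coding RNA *Malat1* was at 603 and 693 in D2A7, 421 and 446 in D1E6, 427 and 490.3 in E2E8 and 318 and 332 in E2G7, with no call among the 4 RNAs of its list. Of 25 clustered protocadherin genes 2 were tested, and of 15 genes of the 2-cell-like state 1 was, without a call in either list.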

How the data were processed

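Stranded total RNA of the 4 KO clones and WT mESCs was sequenced from both ends, 2 libraries each. The authors mapped the reads (NCBIM37), took gene counts from HTSeq with a later GENCODE release than the one used here and deposited FPKM values for 34591 genes, and every column was used. The submitters' processing notes name edgeR 3.16.5, limma and R 3.3.1. The gene lengths behind the deposited FPKM are not given in the sources used here. Positions, gene types and exon lengths came from GENCODE vM1, which holds 33606 of the identifiers (97.2%). FPKM multiplied by exon length gave whole multiples of 1 step for 98.2% to 98.4% of values under 100 steps (tolerance 0.02), and hence the fragments behind a value. Intervals and limits on such counts cover counting error only.

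Each library was divided by its median ratio to the geometric mean over genes that reached 1 FPKM in all KO libraries. The 17601 genes that reached 0.1 FPKM in 2 or more KO libraries were compared on log2(value + 0.1), which understates changes of low genes, with limma 3.58.1 in R 4.3.3 (two-sided moderated test with variance trend, Benjamini-Hochberg adjustment over all genes tested). The log2 difference is *Dnttip1* KO minus *Elmsan1* KO. The fit over libraries treats libraries of a clone as independent, as a plain limma fit of libraries does. Their correlation within clones was estimated at 0.856, so its SEs and p-values are too small for a statement on knockouts. The SEs printed with log2 differences are those of the fit over libraries. That fit was then repeated on the clone means. The libraries of a clone differed by more than sampling noise, with a chi-square per gene of 5.08 to 5.95. Code was tested on simulated data. Python 3.11.15 was used for the rest, with numpy 2.4.6, pandas 2.3.3, scipy 1.17.1 and matplotlib 3.10.9.

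Named genes are the MiDAC subunits and paralogues, the 12 largest called differences in each direction among genes averaging 1 FPKM or more without overlap, up to 4 called members, of 1 FPKM or more, of each of 46 lists (otherwise the most abundant member), and genes that the study names for RNA levels. Genes of chromosome 18 were counted but are not named or reported singly here, *Map2* was not analysed here, and 1 other gene that the rule names is not reported here. The comparison, rule and lists were chosen with earlier results of these data known. The lists were not tested as sets. The alternatives tried were pseudocounts of 1 and 0.01, only genes averaging 1 FPKM or more, no filter, FPKM as deposited, chromosome medians set equal, no variance trend, correlated libraries of a clone, a replicate block, voom on fragments, an adjusted p threshold of 0.05, and each library or clone left out. A mean of at least 50 fragments was added after seeing the data.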

Additional observations from a re-analysis of the deposited data

Results flagged for a closer look

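In 3 of the 216 groups of 4 libraries examined (108 named genes in each knockout), 1 library stood far from the other 3 by Dixon's ratio at its 95% limit. Chance gives such a result in about 1 of 20 groups of independent values, which the 2 libraries of a clone are not. *Dppa5a* was lowest in E2E8 replicate 2 at 1718 normalised FPKM, beside 1919 to 1927 in the other *Elmsan1* KO libraries. *Hoxc12* was highest in E2E8 replicate 2 at 7.729, beside 6.16 to 6.22. *Mir32* was at 0.1882 in E2E8 replicate 1, beside 0.830 to 0.893; it was among the genes whose clones all differed by 1.5-fold and had no call. None of the 3 genes was called.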

How the results depend on the processing

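Counts are given as higher and lower in *Dnttip1* KO. The calls over libraries, 197 and 73, became 60 and 19 with a pseudocount of 1, 75 and 37 over genes averaging 1 FPKM or more, and 107 and 53 with a mean of at least 50 fragments, an alternative chosen after seeing the data. They became 37 and 17 with libraries of a clone correlated, 19 and 9 with clones as units and 3 and 1 at 1.5-fold and an adjusted p under 0.05. With the replicate number as a block they were 127 and 45. Correlations of the replicate deviations between clones ran from -0.12 (D1E6 with E2G7) to 0.23 (D2A7 with E2E8). The labels do not say what the replicate numbers stand for, so whether they pair samples cannot be told. The calls were 63 and 46 without D2A7, 1397 and 463 without D1E6, 95 and 15 without E2E8 and 459 and 1021 without E2G7. They were 87 and 40 without D2A7 replicate 1, 70 and 38 without D2A7 replicate 2, 408 and 103 without D1E6 replicate 1, 359 and 102 without D1E6 replicate 2, 81 and 25 without E2E8 replicate 1, 89 and 28 without E2E8 replicate 2, 195 and 148 without E2G7 replicate 1 and 204 and 135 without E2G7 replicate 2.

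The calls over clones, 19 and 9, were 11 and 5 with a pseudocount of 1, 8 and 2 over genes averaging 1 FPKM or more, 4 and 3 with at least 50 fragments, 40 and 24 without a filter, 35 and 15 without the variance trend and 0 and 0 at an adjusted p under 0.05. Leaving out 1 library gave 19 to 33 and 7 to 17. Genes without overlap (955 and 706) were 1992 and 1837 without D2A7, 4790 and 3690 without D1E6, 2714 and 1829 without E2E8 and 4150 and 4662 without E2G7, and 1018 to 1560 and 760 to 1086 without 1 library. Leaving out samples makes separation easier by construction. Genes exceeding both clone differences (2193) were 1350 over genes averaging 1 FPKM or more, 3349 without a filter and 1439 with at least 50 fragments, where the number of genes tested differs.

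The median log2 difference of a list moved by more than the SD of its libraries as follows. For Y-linked genes (2.54) it was 4.80 with voom on fragments, 0.80 without clone E2E8 and 4.46 without clone E2G7. For mitochondrially encoded genes (0.47) it was 0.40 with a pseudocount of 1, 0.41 without clone D2A7 and 0.42 to 0.48 without 1 library. For small nucleolar and Cajal body RNAs (0.19) it was 0.12 without clone D2A7, 0.29 without clone D1E6, 0.27 without clone E2G7 and 0.17 to 0.26 without 1 library. For p53 targets (-0.23) it was -0.43 without clone E2G7. For the integrated stress response (-0.30) it was -0.090 without clone E2E8 and -0.49 without clone E2G7. For chromosome 6 (-0.17) it was 0.064 without clone D2A7 and -0.44 without clone D1E6. *Dnttip1* kept its direction in all alternatives but missed the threshold with clones as units (-1.03) and without E2G7 (-0.92). *Elmsan1* and *Zfp69* kept direction and side in every alternative refitted at the same call rule, with values from 0.68 to 0.82 and -1.34 to -0.77. No named gene past the threshold changed direction. The cause of these changes was not tested.

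With 2 clones a knockout, the precision over clones is low. Whether the p-values of the library fit measure more than the spread among these clones cannot be told from 2 of each. FPKM of low value rest on few fragments for short genes, and the intervals of such counts cover counting error only.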
